A study of Mus musculus with 10 samples.

Results

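The STAT genes encode signal transducers and activators of transcription, and 6 of them were examined here (Stat2, Stat3, Stat4, Stat5a, Stat5b and Stat6) for the chromatin loops called around their promoters in mouse bone marrow-derived macrophages (BMDMs). A loop was taken as near a gene when either of its 10 kb anchor bins overlapped the 100 kb on either side of the gene's transcription start site (TSS; GENCODE M21 on GRCm38). By this rule the 6 genes, of 21728 protein-coding genes, had 1071 of the 301424 loops in the 5 loop lists. Each list held 192 to 244 such loops, a loop being counted once even where it was near several of the genes.

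The cells were wild-type BMDMs from female C57BL/6 mice aged 2 to 3 months, grown in M-CSF at 20 ng/ml and treated from day 6 of differentiation. M0[CTR] macrophages were untreated. M2[IL-4] macrophages received IL-4 at 20 ng/ml for 24 h, and M2p[pIL-4] macrophages had the same exposure and were then washed and rested for 24 h. IFNG macrophages received IFNG at 20 ng/ml for 3 h with no earlier IL-4, and pIL-4 + IFNG macrophages were exposed to IL-4, washed, rested and given the same IFNG dose. Each group had 2 Hi-C samples but a single loop list, so no value below has a replicate error, and a difference between lists cannot be set against the spread between replicates. Where 5 values follow each other below, they stand in the order of the groups just described. Loops near the STAT genes numbered 196, 192, 218, 221 and 244. The lists ran from 53424 loops and 2174945 contacts in M0[CTR] to 67728 loops and 2787117 contacts in M2p[pIL-4]. They hold no transcript levels, so neither the expression of the STAT genes nor the macrophage label could be checked against marker genes.

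A cytokine that binds its receptor activates the Janus kinases (JAKs) held on the receptor tails, and these phosphorylate STAT proteins, which pair, enter the nucleus and bind DNA. STAT6 is the main STAT of the IL-4 receptor, and in macrophages it drives the alternative, M2 program. STAT2 joins IRF9 in the complex that answers type I interferon, STAT3 carries the IL-6 and IL-10 signals, STAT4 is best known for IL-12 signaling in lymphocytes, and STAT5A and STAT5B serve the CSF and common beta chain receptors in myeloid cells. The genes sit at 4 places in the genome. Stat5b (chr11:100780731-100850724, minus strand), Stat5a (chr11:100859351-100885169, plus strand) and Stat3 (chr11:100885098-100939540, minus strand) lie side by side. Stat6 (chr10:127642986-127660957) and Stat2 (chr10:128270559-128292849) are on the same chromosome but apart, and Stat4 (chr1:51987148-52107189) is alone, all 3 on the plus strand. The Stat5a and Stat5b TSSs fall in the same 10 kb bin (chr11:100850001-100860000), so these genes share every loop and every value at this resolution, and the Stat3 window overlaps theirs.

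Sequences are given first for the bins on which the loops below turn. The promoter stretches are the 250 bases before a RefSeq start (GRCm38.p6, read along the gene's strand). Each was searched on both strands for TTCNNNGAA, a palindrome that STAT dimers bind. Of such palindromes only this spacing was searched, so STAT sites with a longer spacer were not counted. The other motif, also searched on both strands, was GAAANNGAA, the core of the element that interferon regulatory factors bind. TTCNNNGAA was in none of the 9 stretches listed for the members, against 7.02% of all 32851 promoters. GAAANNGAA was in 2 of the 9, against 7.13% of all. These 2 are shown with the match in capitals, from position -221 to -213 before the Stat2 start and from -97 to -89 before the second Stat4 start, where positions count back from -1 at the base before the start. The Stat5b stretch is shown because it lies in the bin with the most uneven loops. It held neither motif, and its GC content was 82%, against a median of 52.4% over all promoters.
Stat2, chr10:128270248-128270497, plus strand: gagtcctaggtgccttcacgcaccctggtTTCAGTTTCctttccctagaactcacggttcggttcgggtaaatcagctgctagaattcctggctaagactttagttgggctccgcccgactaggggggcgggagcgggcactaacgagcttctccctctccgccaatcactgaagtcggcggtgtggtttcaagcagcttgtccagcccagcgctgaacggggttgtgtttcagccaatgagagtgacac
Stat4 second start, chr1:52007990-52008239, plus strand: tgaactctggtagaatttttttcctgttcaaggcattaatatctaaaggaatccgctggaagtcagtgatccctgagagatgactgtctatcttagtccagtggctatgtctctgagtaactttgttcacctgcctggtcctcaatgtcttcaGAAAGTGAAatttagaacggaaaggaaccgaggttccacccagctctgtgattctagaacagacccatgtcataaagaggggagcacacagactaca
Stat5b, chr11:100850582-100850831, minus strand: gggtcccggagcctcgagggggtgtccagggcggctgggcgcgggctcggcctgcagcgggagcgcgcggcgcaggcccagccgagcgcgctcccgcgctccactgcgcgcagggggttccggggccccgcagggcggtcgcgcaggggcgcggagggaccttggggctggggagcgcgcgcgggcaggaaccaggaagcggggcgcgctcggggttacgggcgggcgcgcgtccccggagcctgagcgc

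CTCF, the factor at many loop anchors, reads a longer consensus, and 2 facing sites are the usual arrangement at a CTCF loop. A 14-base CTCF consensus with at most 1 mismatch was found in 21.4% of all 255608 gap-free 10 kb bins, in 42.6% of the 22853 bins that anchored a loop in all 5 lists and in 38 of the 92 bins of the STAT windows (41.3%). The matches below are those in the anchors of 3 bin pairs that were called in all 5 lists, with 15 bases on either side and the consensus in capitals, each read along the strand named. A match is a description of sequence, and binding was not measured.
Distal anchor of the Stat4 loops, chr1:51644614-51644657, plus strand: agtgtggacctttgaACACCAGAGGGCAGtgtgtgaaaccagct
Anchor before Stat4, chr1:51945026-51945069, minus strand: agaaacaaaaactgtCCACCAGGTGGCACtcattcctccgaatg
Anchor inside Stat4, chr1:51998732-51998775, minus strand: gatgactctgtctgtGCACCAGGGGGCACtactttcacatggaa
Anchor in the 3′ part of Stat3, chr11:100893608-100893651, plus strand: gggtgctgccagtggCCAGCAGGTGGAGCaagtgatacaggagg
Anchor upstream of Stat3, chr11:100957412-100957455, minus strand: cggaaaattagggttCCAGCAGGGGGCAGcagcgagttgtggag
In the Stat4 pairs the distal match pointed toward both others, and in the Stat3 pair the matches faced each other. The matches before Stat4 and upstream of Stat3 had no mismatch and the other 3 had 1. The bin upstream of Stat3 held 2 further matches with a mismatch, 1 on each strand, and the bin before Stat4 held 1 more on the plus strand. The 3 pairs shown were picked from the 80 bin pairs near the members that were called in all 5 lists, and facing matches were not counted over all of these. The Stat6 TSS bin held a match on the plus strand only. Its pair with the bin 80 kb before it was also called in all 5 lists and had no facing matches.

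The number of loops differed far more between the genes than between the conditions. Stat3 had 82, 78, 94, 88 and 108 loops in the 5 lists, highest in pIL-4 + IFNG, and more than 98.0% to 99.2% of all protein-coding genes. Stat5a and Stat5b had 56, 64, 72, 67 and 85 in the same order. Stat6, the IL-4 effector, had 46, 54, 55, 49 and 52, and its highest number was in M2p[pIL-4]. Stat2 had 46, 37, 45, 54 and 57, lowest in M2[IL-4] and highest in the IFNG lists. Scaled in the same way it had 8.61, 6.35, 6.64, 9.82 and 8.51, with pIL-4 + IFNG below M0[CTR]. Stat4 had the fewest, with 17, 13, 16, 21 and 17. The median gene had 6 to 8 loops per list, so Stat4 also stood above the median, and 60.6% to 73.0% of genes had fewer loops than it. The order Stat3, Stat5a/Stat5b, then Stat4 last held in each list, while Stat2 and Stat6 were equal in M0[CTR] and changed places between lists.

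**Figure D1:**
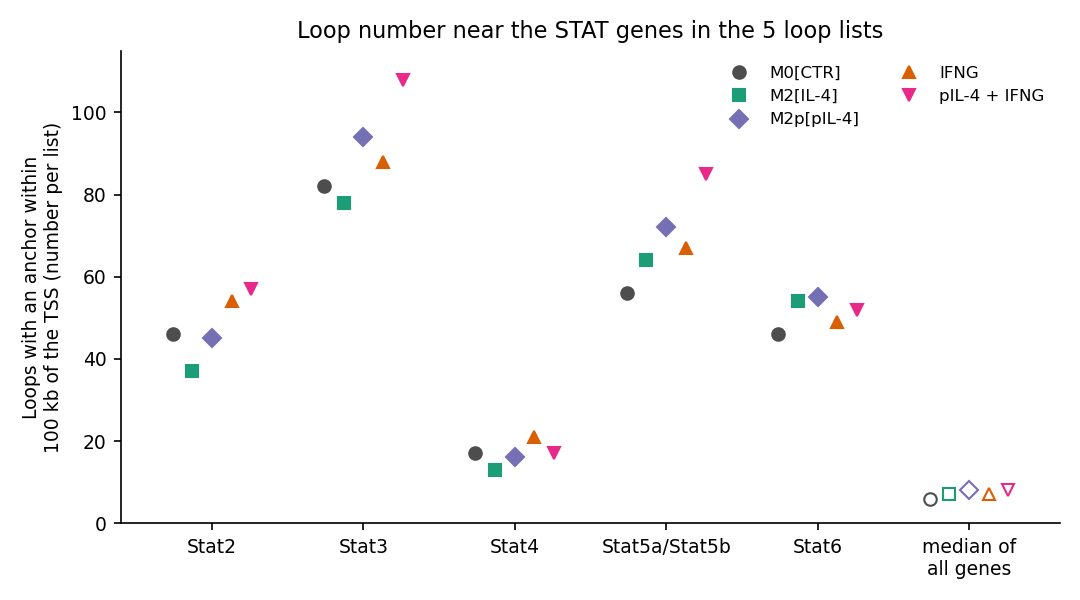
Loop number near each STAT gene in the 5 loop lists. The y axis gives the number of loops with an anchor within 100 kb of the TSS, filled symbols are the genes, 1 symbol per list, and open symbols are the median over 21728 protein-coding genes (6 to 8 loops). Stat3 is highest in each list, from 78 to 108 loops, and Stat4 lowest, from 13 to 21.

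The loops also had different shapes. Stat4 loops were long, with a median span of 305 kb over its 46 distinct bin pairs and 43 of the 46 reaching outside the window, and none of the outside bins held the TSS of a protein-coding gene. Over their distinct bin pairs the other genes had median spans of 75 kb (Stat2), 80 kb (Stat3 and Stat6) and 100 kb (Stat5a and Stat5b). Within single lists their median spans ran from 50 to 90 kb, against 160 to 180 kb over all loops of a list. Of the Stat5a/Stat5b bin pairs 59.6% had both anchors inside the window, as did 48.0% of those of Stat6, 37.5% of those of Stat3 and 28.4% of those of Stat2. Mean contacts per loop ran from 22.3 to 27.4 for Stat4 and from 55.3 to 72.1 for the others. Stat4, with the longest loops, thus had the fewest contacts per loop. In M0[CTR] the other genes followed this order, with median spans of 50 kb (Stat6), 70 kb (Stat3), 75 kb (Stat5a and Stat5b) and 80 kb (Stat2). Their contacts per loop there were 70.5, 67.0, 66.3 and 55.3. In IFNG the order did not hold. Stat2 had the shortest median span there, 60 kb, but 60.7 contacts per loop against 71.3 for Stat6 at 70 kb.

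No STAT gene changed its loop number by more than 1.5-fold in any comparison. Loop numbers were scaled by list length with 1 added to each, and the fold threshold was applied to genes with at least 10 loops in the mean of both lists, which all 6 genes reached in each comparison. With the threshold passed in either direction, the share of all tested genes was 10.9% in M2[IL-4] over M0[CTR], 7.47% in M2p[pIL-4] over M0[CTR], 9.42% in M2p[pIL-4] over M2[IL-4], 12.1% in IFNG over M0[CTR], 11.4% in pIL-4 + IFNG over M2p[pIL-4] and, last, 7.93% in pIL-4 + IFNG over IFNG. The 6 comparisons share lists, so they are not independent of each other.

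After IL-4, the gene numbers split. The log2 ratio of M2[IL-4] over M0[CTR] was 0.10 for Stat6 and 0.06 for Stat5a and Stat5b, and it was -0.20 for Stat3, -0.43 for Stat2 and -0.49 for Stat4. The median over the 6 genes was -0.07. After washout (M2p[pIL-4] over M0[CTR]) the ratio was -0.37 for Stat2, -0.42 for Stat4, -0.15 for Stat3, -0.09 for Stat6 and 0.01 for Stat5a and Stat5b. Between M2p[pIL-4] and M2[IL-4] all 6 lay between -0.19 and 0.06.

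After IFNG all 6 genes had a ratio above 0 without priming, from 0.05 (Stat6) to 0.25 (Stat4), with a median of 0.20. Of all tested genes 57.3% lay below the Stat6 ratio and 77.9% below that of Stat4, so all 6 were well within the range of other genes. The 6 ratios are also not separate observations, because Stat5a and Stat5b share a window and that of Stat3 overlaps it. In primed cells (pIL-4 + IFNG over M2p[pIL-4]) the ratio was 0.35 for Stat2, 0.25 for Stat5a and Stat5b, 0.21 for Stat3, 0.10 for Stat4 and -0.06 for Stat6. Primed against unprimed cells under IFNG gave -0.57 for Stat4, just inside the 1.5-fold limit and past it when list lengths were made equal (-0.87), -0.21 for Stat2, -0.20 for Stat6, 0.01 for Stat3 and 0.05 for Stat5a and Stat5b. The Stat6 value turned to 0.60, past 1.5-fold, when touching bin pairs were merged, and was 0.08 without scaling, so its direction was not stable. Over the 5 lists the scaled loop number of Stat4 had the widest range (0.73 on the log2 scale) and that of Stat6 the narrowest (0.26). The median range over 9735 genes was 0.53, and 73.5% of them had a narrower range than Stat4 and 9.67% a narrower range than Stat6.

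**Figure D2:**
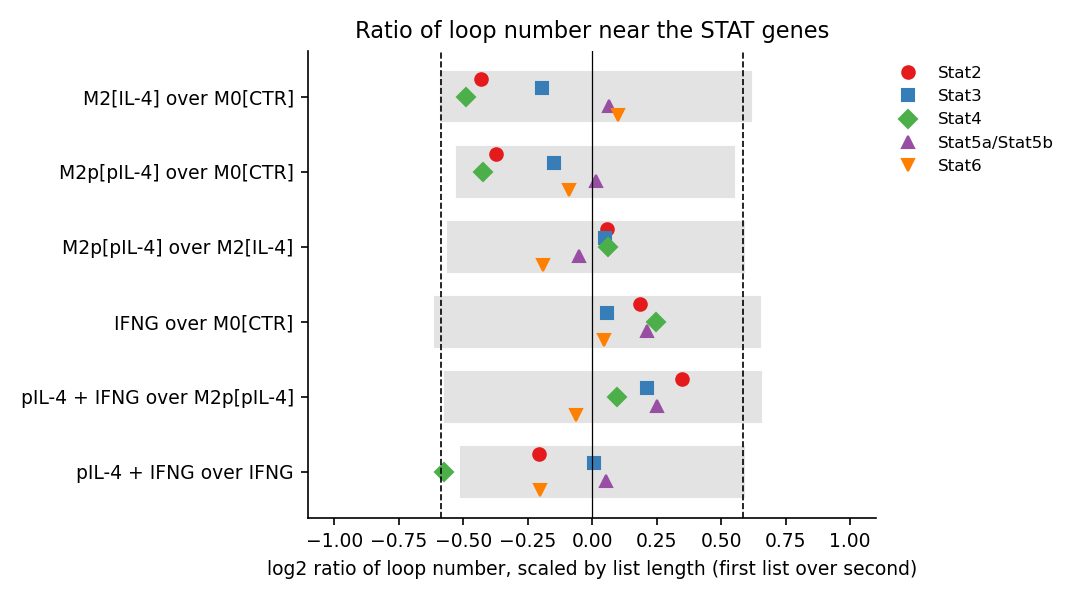
Log2 ratio of loop number, scaled by list length, for each STAT gene in the 6 comparisons. Grey bands span the 5th to 95th percentile of all tested genes and dashed lines mark 1.5-fold. All points lie between the dashed lines, Stat4 in pIL-4 + IFNG over IFNG being the nearest to one at -0.57.

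The gene with the widest range, Stat4, was compared with 9569 genes that lay over 1 Mb from every STAT gene and had at least 10 loops in the mean list. The nearest by Euclidean distance of the centred log2 scaled loop numbers over the 5 lists were Sp8 (21, 17, 21, 26 and 22 loops, distance 0.08), Tbx4 (22, 18, 20, 27 and 22, distance 0.10) and Wdfy4 (18, 13, 17, 22 and 19, distance 0.11). Sp8 and Tbx4 are developmental transcription factor genes, and this likeness rests on 5 values per gene.

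Contacts near the STAT genes did not pass a test either. For each comparison, bin pairs present in both of its lists were taken, and their contacts in a gene's window were added up and set against the genome-wide ratio by a two-sided exact binomial test, adjusted over all genes by the Benjamini-Hochberg method. The test compares lists, not conditions. A pair called in only 1 of the lists compared did not enter, so gained or lost loops were outside the test. For Stat4 it covered 5 to 10 bin pairs. None of the 6 STAT genes passed at an adjusted p under 0.05. Among all genes 0.0173% passed in M2[IL-4] over M0[CTR], 0.103% in IFNG over M0[CTR], 0.0484% in pIL-4 + IFNG over M2p[pIL-4] and 0% in each of the other 3 comparisons. At an unadjusted p under 0.05, the shares of all tested genes in the 6 comparisons, in the order given for loop number, were 5.26%, 3.39%, 2.63%, 4.32%, 4.01% and 2.71%, with 11572 to 12408 genes tested. Of the 6 STAT genes 0, 0, 0, 4, 1 and 0 were past it, and 3 of the 4 share bin pairs.

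The 4 STAT genes were in IFNG over M0[CTR]. Over the 29 bin pairs near Stat6 called in both lists, contacts were 2602 in IFNG and 2338 in M0[CTR], a log2 ratio of 0.11 (95% interval 0.03 to 0.19, exact binomial p = 0.00715, adjusted p = 0.649). Over 55 bin pairs near Stat3 they were 4100 and 4238, a log2 ratio of -0.09 (95% interval -0.15 to -0.03, exact binomial p = 0.00397, adjusted p = 0.551). Stat5a and Stat5b, whose bin pairs overlap those of Stat3, had 2492 and 2611 over 35 bin pairs (log2 ratio -0.11, 95% interval -0.19 to -0.03, adjusted p = 0.649 by the exact binomial test). Stat2 and Stat4 had log2 ratios of -0.06 and -0.12 with intervals from -0.16 to 0.04 and from -0.37 to 0.13. In the other 5 comparisons each member's adjusted p was 1, and the lowest unadjusted p was that of Stat6 in pIL-4 + IFNG over M2p[pIL-4] (log2 ratio 0.09, exact binomial p = 0.0221). These intervals cover counting error only.

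Stat6 had the most regular loops. Of its 100 distinct bin pairs 24 were called in all 5 lists, the highest share among the members (24.0%, against 9.18% of all 153264 bin pairs). Most of these had an anchor in Lrp1, the large endocytic receptor gene just upstream. The Stat6 TSS bin was itself an anchor in each list, with 4, 5, 7, 6 and 6 loops. Its strongest pair, with the next bin of the Stat6 body, had 181, 134, 166, 182 and 176 contacts. The M2[IL-4] value was the lowest, with a Poisson 95% interval of 112.3 to 158.7 against 155.6 to 209.4 in M0[CTR], and the log2 ratio between them was -0.43 (95% interval -0.77 to -0.10, exact binomial p = 0.00944, adjusted p = 1 over all bin pairs). The pair with the bin of the Nab2 and Nemp1 TSSs, 20 kb away, had 107, 94, 106, 104 and 104 contacts. NAB2 is a corepressor of EGR factors.

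Loops from the Stat6 TSS bin into Lrp1 reached more bins in the lists from treated cells than in M0[CTR], the shortest list. The part of list length was not tested, and the same count over other TSS bins was not made. Counting loops to any partner, the Lrp1 bin at 80 kb had 11, 9, 7, 6 and 9, highest in M0[CTR]. The Lrp1 bin at 70 kb had 7, 11, 7, 10 and 9, lowest in M0[CTR] and M2p[pIL-4]. The pair at 80 kb (chr10:127560001-127570000) was called in each list with 58, 67, 52, 64 and 63 contacts. The pair at 70 kb was called in all lists but M0[CTR], with 66, 73, 96 and 78 contacts, highest in IFNG, and the bin at 70 kb holds a CTCF consensus match with no mismatch on the plus strand, as does the TSS bin with 1 mismatch. The pair at 60 kb was called in the 3 lists from IL-4-exposed cells, with 48, 51 and 56 contacts, and in neither of the others. In the opposite direction, the pair at 30 kb (Nemp1) was called in M0[CTR] with 68 contacts and in IFNG with 80, the lists without IL-4. A pair that is missing from a list has no value there, so fewer contacts and a call just missed cannot be told apart. Of all bin pairs 1.45% were called only in the 3 IL-4-exposed lists, and near Stat6 2 of 100 were. Only in the 2 lists without IL-4 were 1.21% of all bin pairs called, and near Stat6 again 2 of 100.

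**Figure D3:**
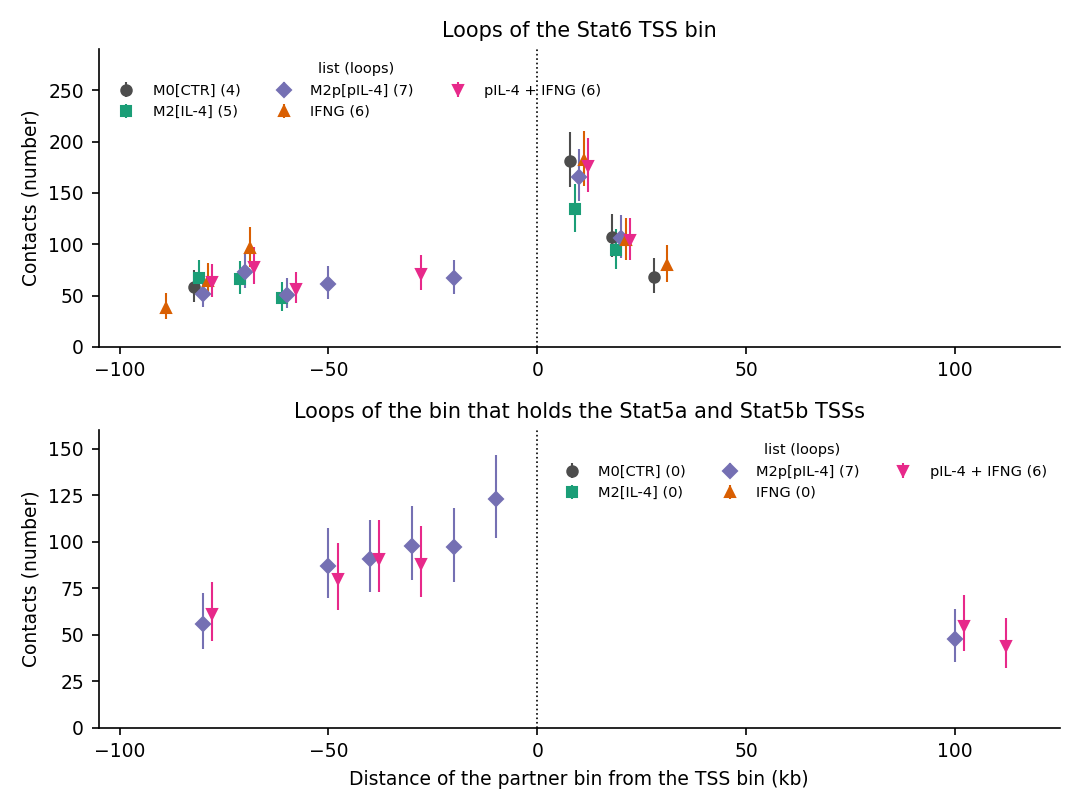
Contacts of each loop anchored in the Stat6 TSS bin (top) and in the bin shared by the Stat5a and Stat5b TSSs (bottom), by the distance of the partner bin in kb (negative is toward lower coordinates). Symbols are lists, bars are Poisson 95% intervals and the legend gives the number of loops. The Stat6 bin has 4 to 7 loops in each list, while the Stat5a/Stat5b bin has 7 in M2p[pIL-4], 6 in pIL-4 + IFNG and 0 in the other 3.

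The bin shared by the Stat5a and Stat5b TSSs was an anchor only after IL-4 washout. It had 7 loops in M2p[pIL-4], 6 in pIL-4 + IFNG and none in the 3 lists from cells that were not washed and rested. In M2p[pIL-4] its partners were 5 bins of the Stat5b body at 10 to 50 kb with 123, 97, 98, 91 and 87 contacts in order of distance, the bin of the Ghdc TSS at 80 kb with 56, and the bin upstream of Stat3 that holds one end of Cavin1, a caveolar coat gene, at 100 kb with 48. In pIL-4 + IFNG the pairs at 30, 40, 50 and 80 kb had 88, 91, 80 and 61 contacts, the pair at 100 kb had 55, and a pair at 110 kb had 44. The shared pairs had similar contacts in both lists, and the pairs at 10 and 20 kb were called only in M2p[pIL-4].

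This pattern was singled out after the values were seen. Of 6226 anchor bins with at least 5 loops in both washed-out lists, 13 (0.209%) had none in the other 3, and of 1121 such bins that hold a TSS, 5 did (0.446%). The neighboring bin (chr11:100860001-100870000), which holds the second RefSeq start of Stat5a, was an anchor in each list, with 8, 9, 9, 8 and 11 loops. From it, the pair with the Stat5b body at 60 kb had 76, 63, 72, 78 and 88 contacts. The washed-out lists are also the 2 longest, with 67728 and 67000 loops, and their part in this pattern was not tested. The lists give no value for an uncalled bin, so a bin left out by the loop caller and a bin with fewer contacts cannot be told apart.

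**Figure D4:**
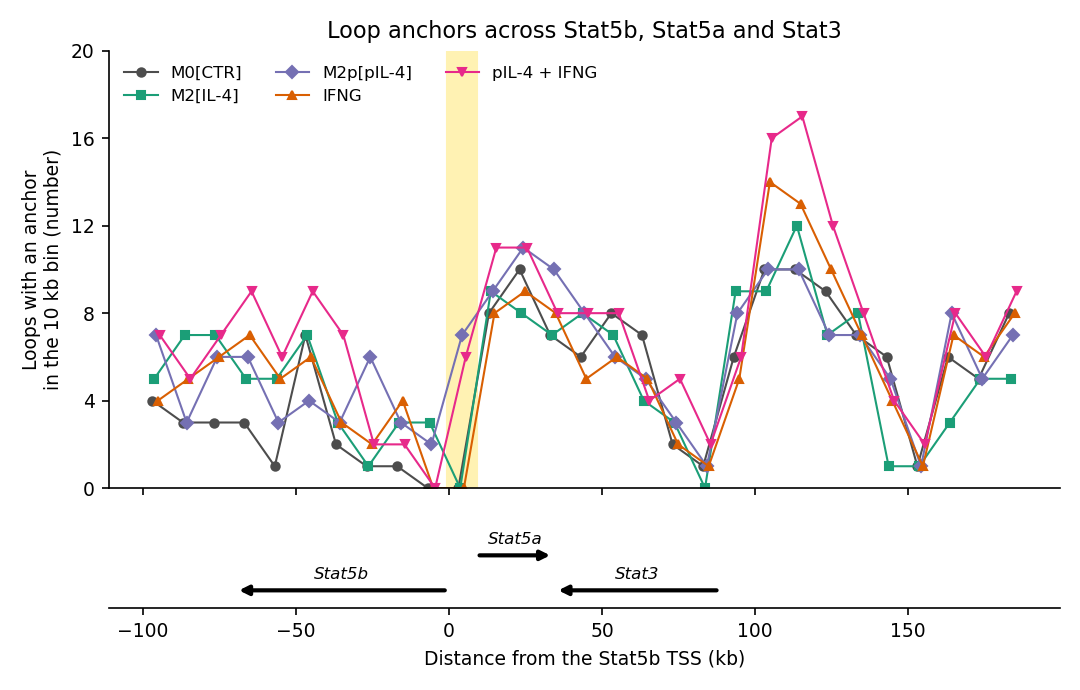
Loops anchored in each 10 kb bin across Stat5b, Stat5a and Stat3, by distance from the Stat5b TSS in kb. Lines are the 5 lists, the yellow band is the bin with the Stat5a and Stat5b TSSs, and arrows show the genes in their direction of transcription. In the band M2p[pIL-4] has 7 loops, pIL-4 + IFNG 6 and the others 0, and the bins 100 to 110 kb to the right, upstream of Stat3, reach 16 and 17 loops in pIL-4 + IFNG.

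Stat3 had 35 bin pairs in all 5 lists of 176 (19.9%), many of them joining its body with the bins upstream of its TSS. The TSS bin itself (chr11:100930001-100940000) anchored few loops, with 1, 0, 1, 1 and 2. The anchors were instead the bin from 100950001 to 100960000, 20 kb further upstream, with 10, 9, 10, 14 and 16 loops, and the next bin, in Cavin1, with 10, 12, 10, 13 and 17. The strongest long pair joined this upstream bin to the 3′ part of Stat3 (chr11:100890001-100900000), the anchors of the facing CTCF matches shown above. It had 131, 123, 117, 89 and 88 contacts. Both IFNG values lay below the other 3. IFNG over M0[CTR] was -0.60 on the log2 scale (95% interval -1.01 to -0.20, exact binomial p = 0.00236), and the adjusted p was 1 over all bin pairs.

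Neighboring pairs of the same anchors ran the same way in part. The pair from 100880001 to the upstream bin had 79, 66, 73, 47 and 65 contacts, and IFNG was the lowest (log2 ratio over M0[CTR] -0.79, 95% interval -1.35 to -0.25, exact binomial p = 0.00312, adjusted p = 1). The pair from 100890001 to 100960001 had 71, 56, 78, 49 and 49, and that from 100900001 to the upstream bin 83, 89, 91, 65 and 68, with both IFNG lists again the lowest. The pair from the end of Stat5a (100870001) to the same upstream bin had 50, 46, 60, 57 and 59 contacts and showed no such order. Summed over its bin pairs, the upstream bin had 383 contacts in IFNG and 461 in M0[CTR] (log2 ratio -0.31, 95% interval -0.51 to -0.11, exact binomial p = 0.00193, adjusted p = 0.854 over all anchor bins). In primed cells it had 490 in pIL-4 + IFNG and 531 in M2p[pIL-4] (log2 ratio -0.10, 95% interval -0.28 to 0.08, exact binomial p = 0.287, adjusted p = 1). The lowest p of any member bin pair was in pIL-4 + IFNG over IFNG, for the pair from 101010001 to 101050001 inside Atp6v0a1, in the Stat3 window, with 101 and 62 contacts (log2 ratio 0.73, exact binomial p = 0.00168, adjusted p = 1). No member bin pair passed in any comparison, and in IFNG over M0[CTR] 4 of 124 (3.23%) had an unadjusted p under 0.05, against 1.89% of all 25079.

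**Figure D5:**
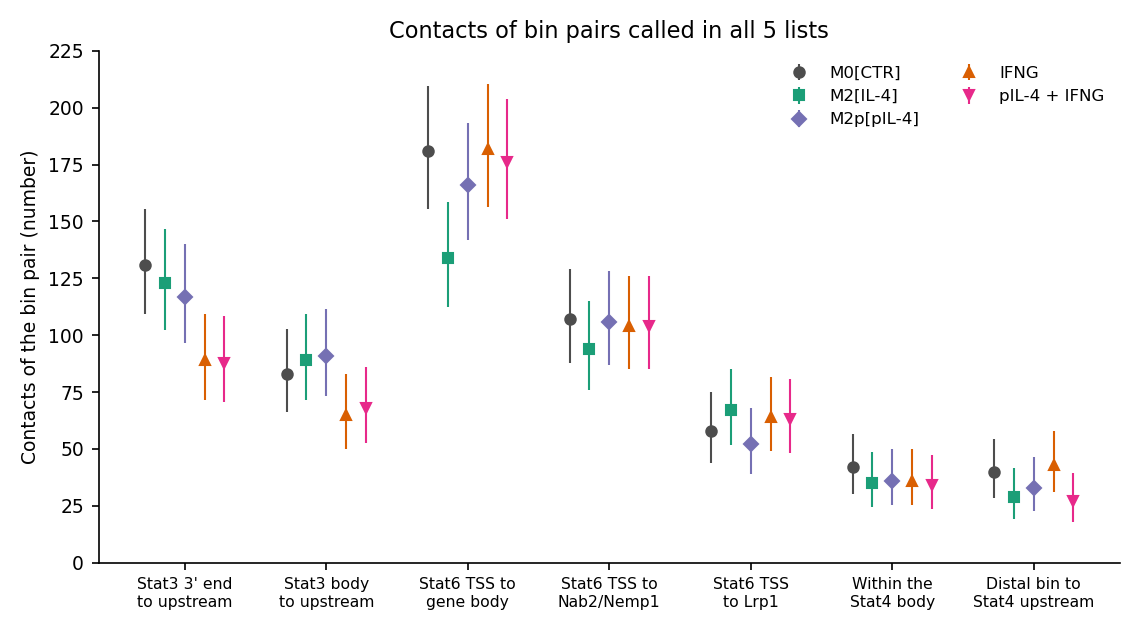
Contacts of 7 bin pairs called in all 5 lists near Stat3, Stat6 and Stat4. Points are contacts per list and bars are Poisson 95% intervals, which cover counting error only. For the pair of the Stat3 3′ part and upstream bin the IFNG lists are at 89 and 88 against 117 to 131 in the others, and the Stat6 TSS pair with its gene body is lowest in M2[IL-4] at 134.

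Stat2 had the lowest loop number in M2[IL-4] and the most short pairs in the IFNG lists. Its TSS bin had 1 loop in each of the 3 lists without IFNG and 3 in each of the lists with it. The pair of the TSS bin with the next bin of the gene was called in M2[IL-4] with 130 contacts and in the unprimed and primed IFNG lists with 131 and 124, and that with the last bin of the gene in M0[CTR] with 88 and in the IFNG lists with 78 and 69. The third loop of the TSS bin joined it to the bin of the Spryd4 TSS at 60 kb in IFNG (41 contacts) and to a bin at 210 kb in pIL-4 + IFNG (19 contacts), and its single loop in M2p[pIL-4] reached the bin of the Timeless TSS at 40 kb (64 contacts). The pair between the next and the last bin of the gene was called in the IFNG lists alone, with 108 and 104 contacts. Around the gene, 2 pairs from the bin of the Timeless TSS were also called in the IFNG lists alone, 1 with the bin of the Apon TSS (98 and 91 contacts) and 1 with the next bin toward Stat2 (62 and 63). TIMELESS is a replication fork protein.

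In all, 6 of the 102 Stat2 bin pairs (5.88%) were called in both IFNG lists and in no other, against 2.11% of all bin pairs, 2.84% near Stat3, 3.97% near Stat5a and Stat5b, 2.00% near Stat6 and 0 of 46 near Stat4. Within 50 kb of the Stat2 TSS there were 11, 8, 15, 18 and 16 loops. In this smaller window IFNG over M0[CTR] was past 1.5-fold for Stat2, where 12.1% of all tested genes were, as was M2p[pIL-4] over M2[IL-4], where 10.5% were. The Stat2 result thus depends on the window. Among pairs called in all 5 lists, the pair inside Timeless had 127, 144, 135, 129 and 140, and that inside Pan2, on the other side of Stat2, had 137, 144, 153, 129 and 145.

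Stat4 was reached by long loops from a distal anchor. In the window, the main anchors were the bin from 51940001 to 51950000, before the gene, with 5, 4, 6, 3 and 6 loops, and 2 bins inside the gene from 51990001, with 3, 2, 4, 6 and 2 and with 4, 2, 4, 4 and 5. The second of these holds the second RefSeq start shown above. The TSS bin had a single loop, of 17 contacts, in M2p[pIL-4] alone. The distal anchor from 51640001 to 51650000 contacted the bin before the gene over 300 kb with 40, 29, 33, 43 and 27 contacts, and the first bin inside it over 350 kb with 23, 19, 28, 20 and 39.

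The third pair in all 5 lists lay in the gene body, from 52000001 to 52090001, with 42, 35, 36, 36 and 34 contacts. For the 350 kb pair pIL-4 + IFNG was the highest, at 39 against 20 in IFNG (log2 ratio 0.98, 95% interval 0.17 to 1.84, exact binomial p = 0.013, adjusted p = 1). The 300 kb pair ran the other way between these lists, at 27 against 43. Of the 46 bin pairs 29 (63.0%) were in a single list, against 55.5% of all and 37.5% to 43.1% for the other members, so the Stat4 loops were those least often found at the same bins.

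With matches allowed within 25 kb, most loops near the members were found in all lists. Of the loops near any member, 92.3% of those in M0[CTR] had a match in the other 4 lists (95% Wilson interval 87.8% to 95.3%), and the shares in the next 4 lists were 91.7%, 90.8%, 87.8% and 89.3%. Over all loops the shares were 81.0%, 78.3%, 76.2%, 80.0% and 76.1%. The shares near Stat6 ran from 94.4% to 98.1% and were the highest among the members in each list but M2[IL-4], where that of Stat3 was 94.9%. Those of Stat4 ran from 64.7% (11 of 17 loops, interval 41.3% to 82.7%) to 94.1% (16 of 17). Loops near the members other than Stat4 were also shorter and more numerous than those of the typical gene, and the part of this in the shares was not tested. At the same bins the shares were 40.8%, 41.7%, 36.7%, 36.2% and 32.8%, against 20.8% to 26.3% over all loops.

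Between pairs of lists, loops without a match within 25 kb were counted in the same way. Of the IFNG loops, 4 of 54 near Stat2, 5 of 88 near Stat3, 3 of 21 near Stat4, 5 of 67 near Stat5a and Stat5b and 1 of 49 near Stat6 had none in M0[CTR], against 13.0% of all IFNG loops. Of the M2[IL-4] loops it was 2 of 37, 4 of 78, 4 of 13, 4 of 64 and 2 of 54, against 13.6% of all. Stat4, at 30.8% of only 13 loops, was above that share and the other members were below it. Of the pIL-4 + IFNG loops near Stat2, 7 of 57 (12.3%) had none in M2p[pIL-4], against 11.4% of all.

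The other genes of the JAK-STAT pathway were taken as a list of 27 receptor, kinase, inhibitor and cofactor genes, of which 23 or 24 had enough loops in a comparison. In M2[IL-4] over M0[CTR] 1 of 23 passed 1.5-fold, upward, and the list's median log2 ratio was 0.03. The gene was Pias1, a SUMO ligase that restrains STATs, with 38 loops against 22. In M2p[pIL-4], Jak1, the kinase shared by the IL-4 and interferon receptors, was higher than in M0[CTR] (18 loops against 8) and than in M2[IL-4] (18 against 9), and was the 1 gene of 24 called in each.

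In IFNG over M0[CTR] 2 of 24 were past 1.5-fold, both upward, with a list median of 0.09. Ptpn11, the gene of the phosphatase SHP2, had 23 loops against 10 and Jak2, a kinase of the IFNG receptor, 28 against 17. In pIL-4 + IFNG over M2p[pIL-4] 3 of 24 were called. Ptpn11 again had more, 23 against 12, while Jak1 had fewer, 9 against 18, and Ifngr1, a chain of the IFNG receptor, had 17 against 28. In pIL-4 + IFNG over IFNG Jak1 was the 1 of 24 called, with 9 loops against 12. With a 50 kb window the Jak1, Jak2 and Ifngr1 calls were lost because these genes then had too few loops (Ifngr1 had 2 against 10 and Jak1 3 against 6 in pIL-4 + IFNG over M2p[pIL-4], and Jak1 6 against 5 in M2p[pIL-4] over M0[CTR]), and Ptpn11 was called in IFNG over M0[CTR] but not in pIL-4 + IFNG over M2p[pIL-4] (17 against 12). The share of all genes called in these comparisons was 7.47% to 12.1%, as given above, so the pathway counts of 1 to 3 were near the background. The pathway medians ran from -0.06 to 0.10, and those of all tested genes lay within 0.05 of 0.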

How the data were processed

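Hi-C was performed on 10 BMDM samples (MboI digestion), 2 per group. The submitters' processing notes name FastQC, Bowtie2, HiC-Pro, Juicer and HOMER with build mm10. The authors deposited 1 loop list per group at 10 kb bins, in which each line is a bin pair with its contact count. The deposited counts are whole numbers from 5 to 299. The study's methods describe HICCUPS loop calls at 25 kb on KR-normalized maps under an FDR limit. The deposited bins are 10 kb, and the call settings for them, how replicates were combined and whether the counts are raw are not given in the sources used here. Every Poisson interval and binomial test takes them as raw counts. Contacts per list (2174945 to 2787117, in loops alone) set the precision, and all intervals cover counting error only.

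Loops were assigned to protein-coding genes by TSS windows of 100 kb and compared with Python 3.11.15, pandas 2.3.3, numpy 2.4.6 and scipy 1.17.1, and plots were drawn with matplotlib 3.10.9. Scaled loop numbers used a pseudocount of 1 loop, and a gene needed a mean of 10 loops. The contact test needed 100 contacts. Its calculation was run on counts simulated from the same binomial model for M2[IL-4] over M0[CTR]. Such counts cannot show whether that model suits these lists. Text names all members, partner genes with a TSS in the 5 strongest pairs of each TSS bin, called pathway genes with the 3 largest ratios, the 3 genes most like the widest-ranging member, and genes that place an anchor. The members and lists were chosen with earlier results of these data known. Alternatives covered windows of 50 and 25 kb, scaling, merging, list length, pseudocount, fold, minimum and match distance. Tests on anchor bins and single bin pairs, and the background of washed-out bins, were added after the data were seen.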

Additional observations from a re-analysis of the deposited data

How the results depend on the processing

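No paired analysis was possible because there was 1 list for both samples of a group and no value for either alone, so the replicate block and leaving out replicates were not run. No member passed the contact test under any alternative run. The number of members past the fold, 0 in each comparison, moved as follows. With a 50 kb window it was 1 in M2p[pIL-4] over M2[IL-4] and in IFNG over M0[CTR] (Stat2 in both) and 1 in pIL-4 + IFNG over IFNG (Stat4), where 10.5%, 12.1% and 8.82% of all tested genes passed. In that last comparison it was also 1 with a 25 kb window, with scaling by summed contacts and with equal list lengths (Stat4 in each, log2 ratio -0.87 with equal lengths), and 1 with touching bin pairs merged (Stat6, log2 ratio 0.60 against -0.20, a change of sign). The shares of all genes under these 4 settings were 8.30%, 8.09%, 8.88% and 12.1%. At the lower fold threshold tried it was 2 in each of the M2[IL-4] and M2p[pIL-4] comparisons with M0[CTR] (Stat2 and Stat4), 1 in pIL-4 + IFNG over M2p[pIL-4] (Stat2) and 1 in pIL-4 + IFNG over IFNG (Stat4), against 34.1%, 29.9%, 31.3% and 28.1% of all tested genes. Pathway genes past the fold with a 50 kb window were 2 in M2[IL-4] over M0[CTR], Il4ra downward (16 loops against 26) and Pias1 upward (29 against 17). The count was 0 in M2p[pIL-4] over M0[CTR], 1 in IFNG over M0[CTR], and 0 in each comparison of pIL-4 + IFNG. It did not move in M2p[pIL-4] over M2[IL-4], where Il4ra had 29 loops against 16 and Jak1 had too few (6 against 2). In the order given for loop number, 10.9%, 8.81%, 10.5%, 12.1%, 10.9% and 8.82% of all tested genes passed in this window. The cause was not tested for any of these.

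Contact log2 ratios changed sign in 11 recalculations, against 97 that did not. With bin pairs called in all 5 lists, Stat5a and Stat5b in M2[IL-4] over M0[CTR] were at -0.042 and Stat4 in pIL-4 + IFNG over M2p[pIL-4] at 0.063. With a 50 kb window, Stat5a and Stat5b in M2[IL-4] over M0[CTR] were at -0.045, Stat2 in M2p[pIL-4] over M0[CTR] at 0.083, Stat6 there at -0.0030, Stat2 in M2p[pIL-4] over M2[IL-4] at 0.013, Stat5a and Stat5b there at 0.023 and Stat2 in pIL-4 + IFNG over M2p[pIL-4] at -0.045. Loops near members matched in all lists were 40.8%, 41.7%, 36.7%, 36.2% and 32.8% at the same bins and 97.4%, 98.4%, 95.9%, 95.02% and 95.9% within 50 kb. Without scaling the median log2 ratio of all genes was furthest from 0 in M2p[pIL-4] over M0[CTR], at 0.30 against -0.04 with scaling.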
